A study of Arabidopsis thaliana with 19 samples.

Results

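Root tip cells of Arabidopsis thaliana seedlings were compared between ages that fell within a day (4D 8H, 4D 16H and 5D 8H, 8 libraries) and ages of a full number of days (4D, 5D and 6D, 9 libraries) (the number before D is days of growth, the number before H is hours past the last full day). These 17 of the 19 libraries in the time course were assigned to within-day or full-day ages by their age labels. Both 5D 16H libraries, though of an age within a day, were left out of the comparison because 1 of them was shallow. Their values are given separately. Every library in both arms came from the PET111:GFP line, a reporter of differentiated columella cells at the root tip, and held the GFP-negative cells sorted from protoplasts of root tips. All seedlings grew on sucrose plates under 16 h of light and 8 h of dark, with no other treatment, and the study describes the sorted cells as mostly stem cells and the replicates as biological ones. Of the 33201 loci in the table, the 18087 that averaged 1 FPKM or more over all libraries were compared. They are a mixture of cell types, in which fewer cells of a type and less RNA per cell cannot be told apart.

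The root meristem grows from a stem cell niche, in which the quiescent centre holds the surrounding stem cells undifferentiated, and PLETHORA, SHORT-ROOT and SCARECROW factors set position and cell fate around it. Light, sucrose and the circadian clock act on the same cells, so that genes of sugar use, protein folding and stress are known to change over the hours of a day. According to the study, roots were harvested at the same hour for every sample. An age of 8 h or 16 h past a full day would then coincide with another hour at which growth began, and the 2 cannot be told apart.

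Expression was given in FPKM, a read count adjusted for the length of the transcript and the size of the library. Estimated depth was 10500000 to 22800000 mapped reads in within-day libraries and 13000000 to 38800000 in full-day libraries. A pair of general measures moved with the arms. The upper quartile of FPKM was 19 to 19.6 in within-day libraries and 17.1 to 19 in full-day libraries, and 17923 to 18106 loci reached 1 FPKM in within-day libraries, against 17376 to 17926 in full-day libraries. The lowest of both was 6D replicate 3. The part of these measures in the differences below was not tested, except through the scaled fits given beside them.

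To ask which genes differed between within-day and full-day ages, these 18087 loci were tested with limma on log2(FPKM + 1), and a locus was called when its Benjamini-Hochberg adjusted p was under 0.05. In all, 2462 loci were called (13.6%), of which 1705 were higher (9.43%) and 757 lower (4.19%) in within-day libraries. Most differences were small, since 10 of the higher and 24 of the lower loci differed by more than 1 on the log2 scale. The median difference over all loci was 0.08, and under upper quartile scaling or quantile normalization the split turned to 1003 higher and 1217 lower loci or 877 higher and 1283 lower loci. The FPKM of the 8 and the 9 libraries did not overlap at 115 loci (0.636%), 75 of them higher (0.415%) and 40 lower (0.221%) in within-day libraries. The 3 within-day time-point means all lay above or all below the 3 full-day means at 4471 loci (24.7%), 3152 of them above (17.4%) and 1319 below (7.29%). Of these 4471 loci, 2235 were called, which is 12.4% of all 18087 loci tested.

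The count of calls differed between fits that treated libraries of a time point as separate evidence and fits that did not. With the time point as a random block, 8 loci were called (0.0442%) and 3810 had an unadjusted p under 0.05, and with the 6 time-point means as the units limma called 0 loci, with 3105 at an unadjusted p under 0.05. The count was 722 without the 4D 8H time point, 830 without the 4D 16H time point and 595 with both 5D 16H libraries added to the within-day arm. It was 1570 without 4D replicate 3, 1438 without 4D 8H replicate 1, 1437 without 4D 16H replicate 1, 1380 without 4D 16H replicate 2 and 1634 without 6D replicate 3. Age was not balanced, with a mean of 4.83 days in within-day and 5 days in full-day libraries, and 6D stood in the full-day arm alone. The count was 2342 without the 6D time point and 2761 with age as a covariate.

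**Figure D1:**
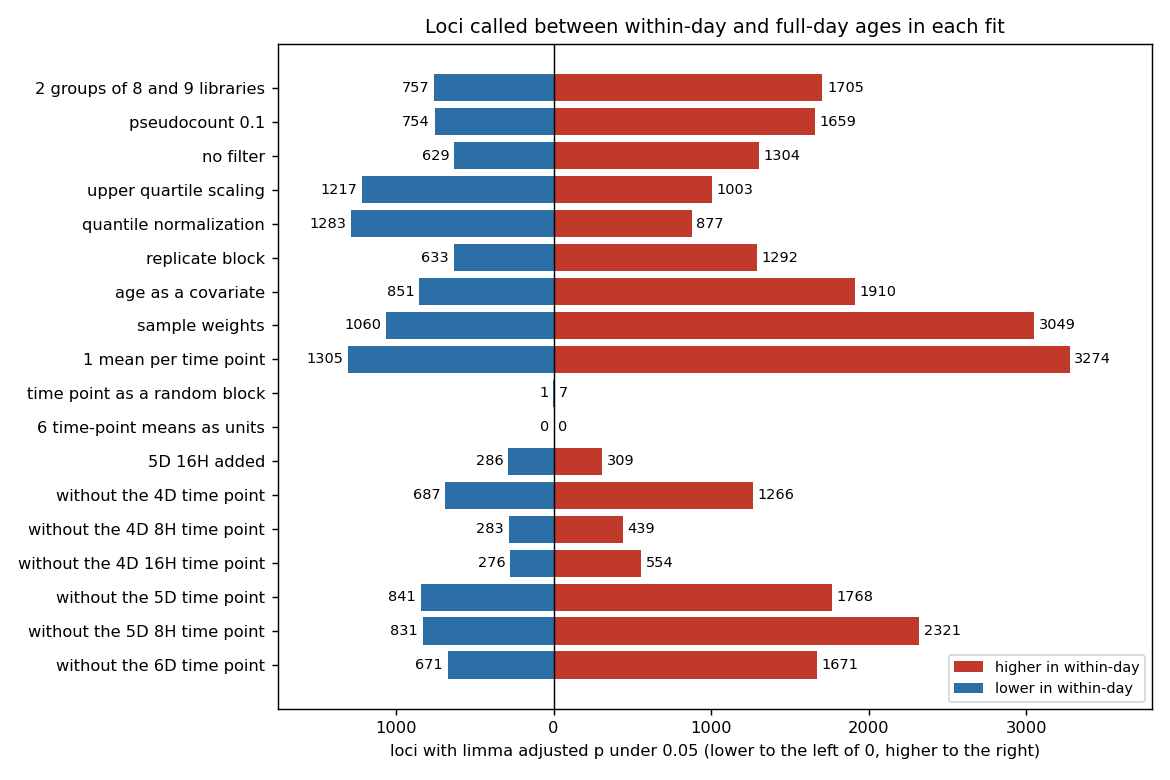
Number of loci with a limma adjusted p under 0.05, higher in within-day libraries (red, to the right) or lower (blue, to the left), in the fit of 8 against 9 libraries and in other fits. Counts range from 0 with the 6 time-point means as units to 3274 higher and 1305 lower loci with 1 mean per time point, and blue exceeds red only under the 2 scalings.

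The 8 loci called with the time point as a random block were also called in the fit of 8 against 9 libraries. The only one that was lower was AT5G53050, annotated as an alpha/beta-hydrolase. Its FPKM had a lowest, median and highest value of 31.9, 36.5 and 41.1 in within-day libraries, against 44.4, 56.4 and 59.6 in full-day libraries, a log2 difference of -0.54 ± 0.06 (SE; limma adjusted p = 0.00115, and 0.025 with the random block). Every within-day library lay below every full-day library, and the time-point means within an arm were close to each other.

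Higher in within-day libraries were 7 loci of varied annotation. AT1G28400, annotated as a GATA zinc finger protein, had 13.2, 19.8 and 22.6 FPKM (lowest, median and highest) in within-day libraries and 7.81, 9.11 and 12.7 FPKM in full-day libraries, with a log2 difference of 0.86 ± 0.11 (SE; limma adjusted p = 0.00115, and 0.0353 with the random block). EPS1 (AT5G67160), an acyltransferase-family protein of salicylic acid synthesis, had 6.27, 7.85 and 9.58 FPKM in within-day libraries and 3.47, 4.47 and 5.70 FPKM in full-day libraries. AT5G62900, annotated as a basic-leucine zipper factor, had 18.6, 21.6 and 28.4 FPKM in within-day libraries and 9.11, 12.4 and 15.4 FPKM in full-day libraries. In all 3 genes the arms did not overlap. The others were AT1G74450, AT3G07425, APRL6 (AT4G08930) and AT5G20880, with log2 differences between 0.52 and 0.95. Apart from AT1G28400, AT3G07425 and AT5G53050, these loci were singled out after their values were seen.

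Among loci whose arms did not overlap, the largest differences upward included enzymes of hormones and the cell wall. BR6OX1 (AT5G38970), an enzyme of brassinosteroid synthesis, had 8.44, 10.8 and 14.7 FPKM in within-day libraries and 1.81, 7.05 and 7.60 FPKM in full-day libraries, a log2 difference of 0.95 ± 0.21 (SE; limma adjusted p = 0.00927). Its time-point mean was 3.05 ± 1.17 FPKM at 6D (SD, n = 3), the lowest of the 3 full-day ages. ATK4 (AT5G27000), a kinesin motor, averaged 24.9 ± 3.9 FPKM in 8 within-day libraries and 14.2 ± 4.64 FPKM in 9 full-day libraries (SD). UBC29 (AT2G16740), a ubiquitin-conjugating enzyme, averaged 18.4 ± 1.21 FPKM in within-day libraries and 10.5 ± 3.93 FPKM in full-day libraries (SD, n = 8 and 9). For both, the 6D libraries were the lowest of all. AT4G24780, a pectin lyase-like protein, averaged 52.2 ± 8.96 FPKM in within-day libraries and 29.9 ± 7.81 FPKM in full-day libraries (SD). The remaining loci named by the same rule were AT5G47920, AT3G07425 and AT2G46890, with 2.09, 2.15 and 1.76 times the mean FPKM of full-day libraries. For these loci, AT4G24780 and AT1G28400, named above, the 6D mean was likewise the lowest of the 3 full-day means.

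**Figure D2:**
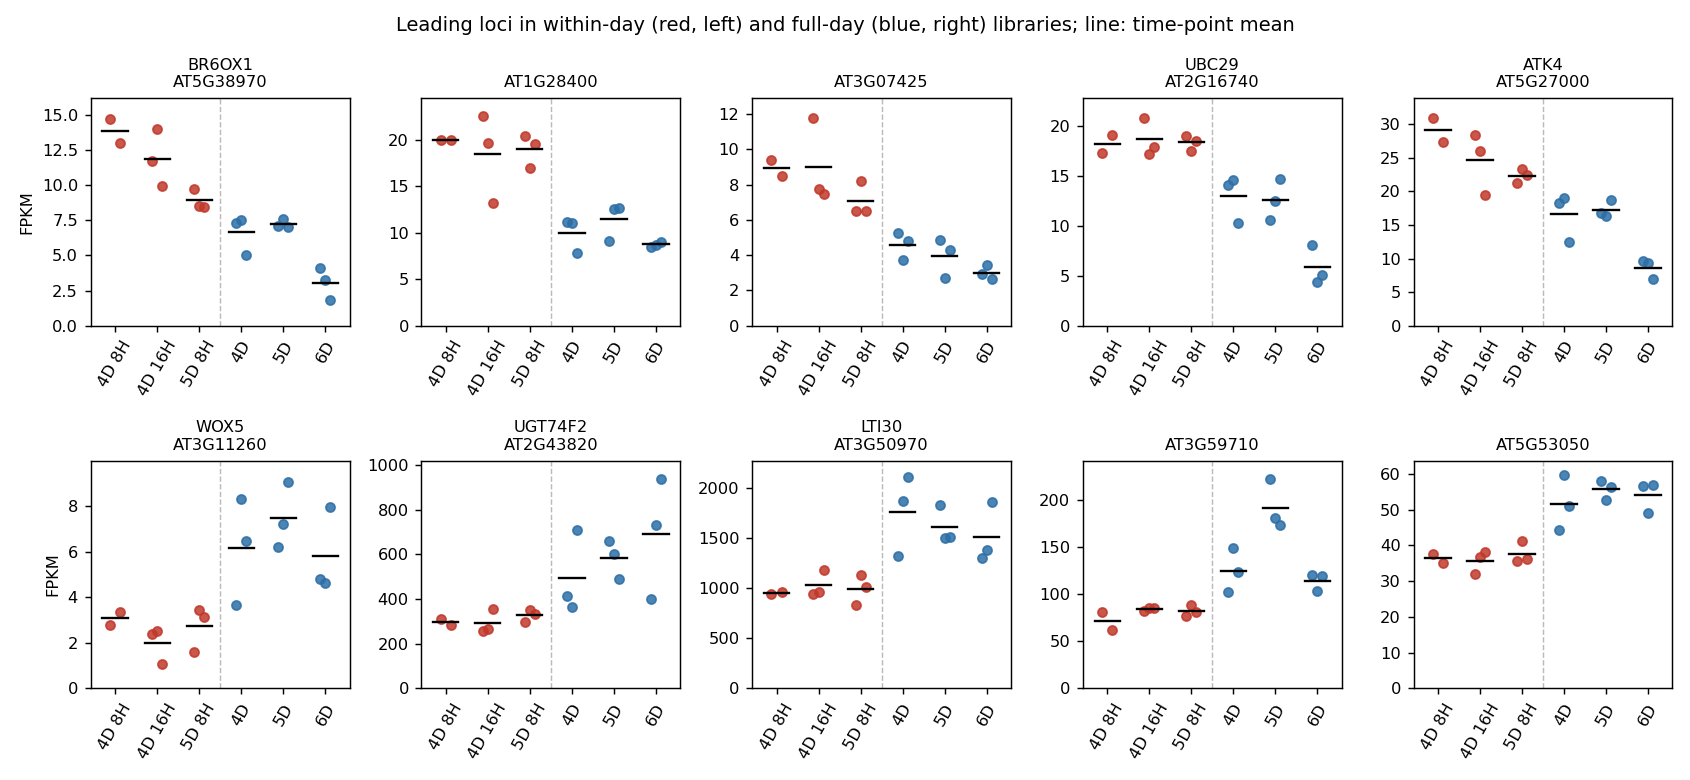
FPKM of 5 loci that were higher (top) and 5 that were lower (bottom) in within-day libraries, with 1 point per library, within-day time points on the left in red, full-day time points on the right in blue, and lines for time-point means. In no panel do red and blue points overlap in height, which was a condition of their selection. In all 5 top panels the 6D mean is the lowest.

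The largest difference downward without overlap was that of WOX5 (AT3G11260), the homeobox factor that marks the quiescent centre and keeps its neighbours undifferentiated. It had 1.09, 2.64 and 3.43 FPKM (lowest, median and highest) in within-day libraries and 3.67, 6.48 and 9.06 FPKM in full-day libraries, a log2 difference of -1.08 ± 0.17 (SE; limma adjusted p = 0.00376, and 0.0522 with the random block). Its mean in within-day libraries was 0.391 times that in full-day libraries, yet in the 5D 16H libraries it was 8.87 and 8.96 FPKM, at the high end of the full-day range, and it did not pass when 5D 16H was added to the within-day arm. UGT74F2 (AT2G43820), which adds glucose to salicylic acid, averaged 307 ± 37.4 FPKM in within-day libraries and 590 ± 189 FPKM in full-day libraries (SD, n = 8 and 9). LTI30 (AT3G50970), a dehydrin induced by cold and abscisic acid, averaged 998 ± 108 FPKM in within-day libraries and 1630 ± 292 FPKM in full-day libraries (SD, n = 8 and 9). For these 2 genes the within-day libraries were also the tighter group, and both 5D 16H libraries again lay in the full-day range. AT3G59710, AT1G29357, AT3G15356 and AT4G08170 were between 0.559 and 0.673 times as high in within-day as in full-day libraries.

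To describe what called loci shared in sequence, the 250 bases before the annotated start were searched on both strands in 17565 protein-coding loci of the TAIR10.1 assembly. The G-box CACGTG, its own reverse complement and a site bound by many plant bZIP and bHLH factors, stood in 13.3% of the 742 lower loci and 7.11% of the 1674 higher loci, against 7.49% of all. The telo-box AAACCCTA, common before genes of translation, stood in 1.89% of lower and 4.24% of higher loci, against 3.43% of all. Site II (TGGGCC or TGGGCT, which share their first bases) stood in 24.4% of lower and 18.3% of higher loci, against 22.6% of all. Lower and higher loci lay on opposite sides of all loci in each of these 3 motifs, and also in AACGG, given next. For AACGG, the core of a mitosis-specific element, the shares were 24.7% and 20.3%, against 21.7%, and for the evening element AAATATCT they were 5.93% and 5.32%, against 4.94%. E2F sites (TTTCCCGC or TTTGGCGC) were rare, at 0.674% and 0.657%, against 0.991%. These shares are descriptions with no test, and a match is not a bound site.

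The promoters of 4 lower loci are shown for their G-boxes, the motif with the largest gap between lower loci and all loci. They belong to AT5G53050, the jasmonate repressor JAZ3, the iron regulator BTS and the starvation-induced ASN1, and their capitals mark the motifs searched.
AT5G53050 (chr5:21513621-21513870, minus strand): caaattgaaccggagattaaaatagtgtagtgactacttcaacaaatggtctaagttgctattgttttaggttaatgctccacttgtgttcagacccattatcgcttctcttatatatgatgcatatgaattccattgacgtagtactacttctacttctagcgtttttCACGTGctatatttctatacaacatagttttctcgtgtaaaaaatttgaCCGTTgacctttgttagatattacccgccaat
JAZ3 (AT3G17860, chr3:6119457-6119706, plus strand): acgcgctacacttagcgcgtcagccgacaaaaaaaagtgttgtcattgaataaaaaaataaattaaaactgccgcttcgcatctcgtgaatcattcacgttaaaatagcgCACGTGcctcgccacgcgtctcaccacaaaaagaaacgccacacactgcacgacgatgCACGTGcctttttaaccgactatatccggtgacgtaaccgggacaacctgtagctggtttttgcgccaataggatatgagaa
BTS (AT3G18290, chr3:6273716-6273965, plus strand): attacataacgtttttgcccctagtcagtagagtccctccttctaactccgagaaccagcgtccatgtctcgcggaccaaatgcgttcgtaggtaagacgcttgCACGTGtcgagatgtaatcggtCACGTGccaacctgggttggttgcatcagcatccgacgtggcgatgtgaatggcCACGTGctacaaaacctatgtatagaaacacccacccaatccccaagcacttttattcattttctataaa
ASN1 (AT3G47340, chr3:17441432-17441681, minus strand): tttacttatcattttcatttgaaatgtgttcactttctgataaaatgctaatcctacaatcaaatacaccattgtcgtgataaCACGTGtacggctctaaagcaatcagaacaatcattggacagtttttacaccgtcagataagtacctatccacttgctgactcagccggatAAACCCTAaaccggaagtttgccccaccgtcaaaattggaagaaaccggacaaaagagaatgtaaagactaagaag
BTS held 3 G-boxes, JAZ3 held 2, and AT5G53050 and ASN1 held 1 each. The other capitals are an AACGG core on the opposite strand in AT5G53050 and a telo-box in ASN1.

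Across 22 gene lists the lowest median belonged to heat shock genes and the highest to touch and wound genes, as the plot of list members shows. None of their members passed with the time point as a random block, where the smallest adjusted p of a named list member was 0.0522. The counts below are therefore to be read beside the 9.43% of all loci that were called higher and the 4.19% called lower. Counts in other fits are to be read beside those of all 18087 loci in the same fit. Higher and lower loci were 1266 and 687 without 4D, 439 and 283 without 4D 8H, and 554 and 276 without 4D 16H. They were 1768 and 841 without 5D, 2321 and 831 without 5D 8H, and 1671 and 671 without 6D. With 5D 16H added they were 309 and 286, under upper quartile scaling 1003 and 1217, and under quantile normalization 877 and 1283. List members named beyond the 3 with the smallest p were chosen after their values were seen.

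**Figure D3:**
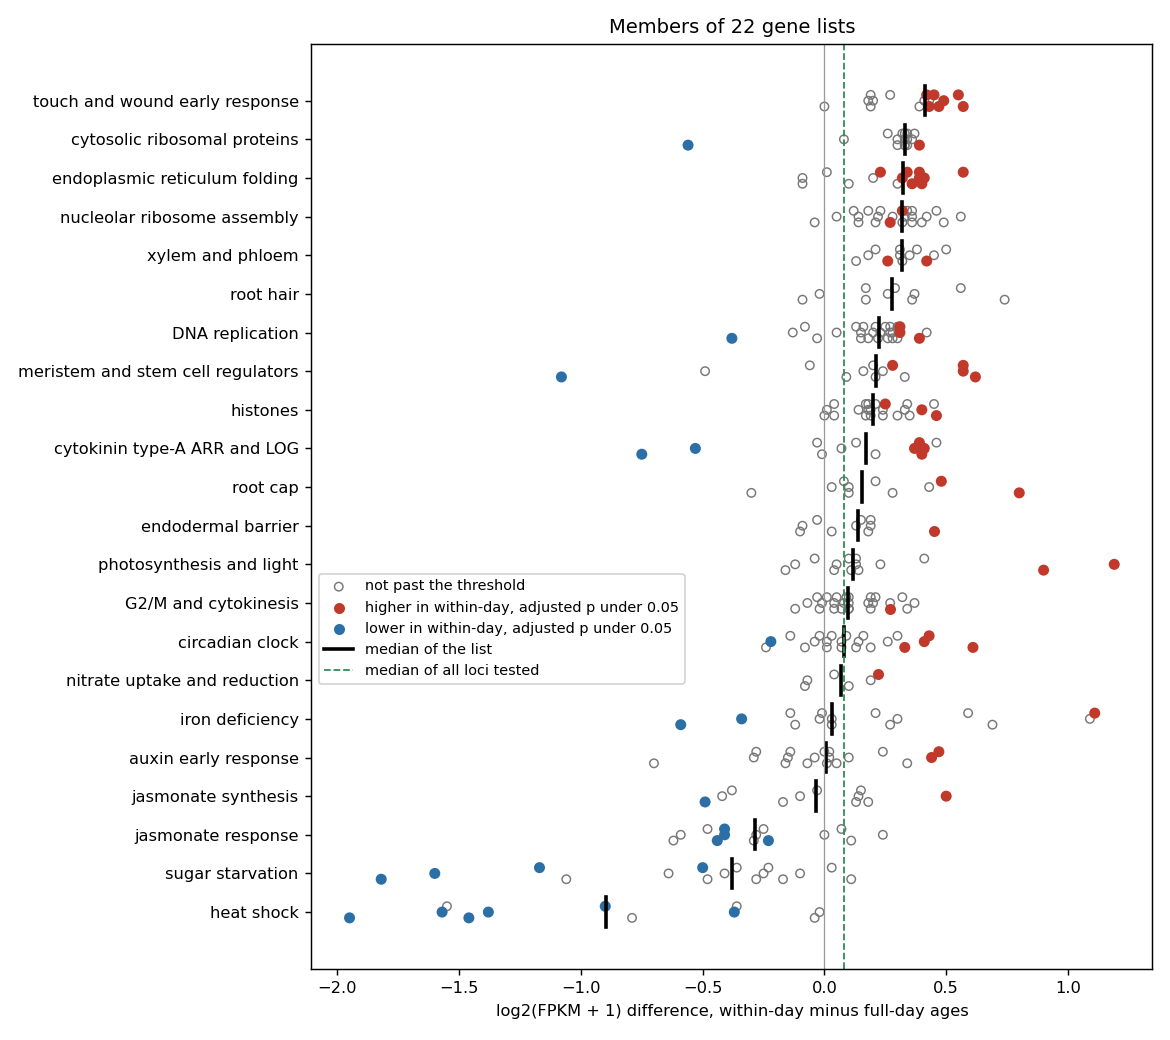
Differences in log2(FPKM + 1), within-day minus full-day ages, of the tested members of 22 gene lists, with filled points for loci past the limma threshold, open points for the others, a black bar for the median of each list and a dashed line for the median of all loci (0.08). Heat shock, sugar starvation and jasmonate response lie to the left. Touch and wound has the highest median (0.415). Cytosolic ribosomal proteins (0.33), endoplasmic reticulum folding (0.324), nucleolar ribosome assembly (0.318) and xylem and phloem (0.317) follow close together.

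Heat shock genes, whose chaperones and small heat shock proteins hold unfolded proteins in the cytosol, were lower in within-day libraries. Of 11 tested members, 6 were lower and 0 higher, with a median difference of -0.896 against 0.08 over all loci. HSP101 (AT1G74310), a disaggregase, had 10.6, 15.7 and 28.1 FPKM (lowest, median and highest) in within-day libraries and 13.5, 40.3 and 94.2 FPKM in full-day libraries, a log2 difference of -1.38 ± 0.31 (SE; limma adjusted p = 0.00983). HSP90.1 (AT5G52640) averaged 10.5 ± 4.42 FPKM in within-day libraries and 32.4 ± 15.1 FPKM in full-day libraries (SD, n = 8 and 9), and HSP70 (AT3G12580) 81.9 ± 24.6 FPKM and 155 ± 51.4 FPKM. 4D replicate 1 was the lowest full-day library for all 3, and without it the arms of HSP101 and HSP90.1 would not overlap, while those of HSP70 would. HSP17.6II and AT1G53540, both small heat shock proteins, and the co-chaperone ROF1 were also lower, while HSP18.2 (-0.02) and BOB1 (-0.04) did not pass. No heat shock gene passed without the 4D 16H time point, and 4 to 8 passed without any other time point.

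Endoplasmic reticulum folding genes, among them chaperones of secreted proteins, were higher. Of 15 tested members, 9 were higher and 0 lower, with a median difference of 0.324. CNX1 (AT5G61790), the lectin chaperone calnexin, had 172, 214 and 248 FPKM in within-day libraries and 107, 150 and 202 FPKM in full-day libraries, a log2 difference of 0.57 ± 0.12 (SE; limma adjusted p = 0.00849). SDF2 (AT2G25110), a folding factor of the same compartment, averaged 90.4 ± 5.35 FPKM in within-day libraries and 72.5 ± 9.61 FPKM in full-day libraries, and the co-chaperone ATERDJ3B (AT3G62600) 108 ± 10.2 FPKM and 82.8 ± 14.2 FPKM (SD, n = 8 and 9). BIP1, BIP2, CRT1a, CRT1b, SHD and the stress-response transcription factor BZIP60 were the other higher members, with differences between 0.23 and 0.41. BIP3 (-0.09), BZIP28 (-0.09) and TIN1 (0.01) did not pass. In the 5D 16H libraries SDF2 had 136 and 107 FPKM and ATERDJ3B 189 and 144 FPKM, all above the highest within-day library, and 9 members passed when 5D 16H was added. The count was 3 without the 4D 16H time point and 4 without 5D 8H.

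Sugar starvation genes, which plant cells switch on when carbon runs short, were lower in 4 of 16 tested members and higher in 0, with a median difference of -0.381. ASN1 (AT3G47340), an asparagine synthetase, had 14.3, 16.8 and 32.3 FPKM in within-day libraries and 20.2, 43.9 and 255 FPKM in full-day libraries, a log2 difference of -1.82 ± 0.41 (SE; limma adjusted p = 0.0106). DIN2 (AT3G60140), a glucosidase, averaged 2.90 ± 1.43 FPKM in within-day libraries and 13.5 ± 12 FPKM in full-day libraries (SD, n = 8 and 9). Both were widely spread among full-day libraries, and ASN1 averaged 184 FPKM at 6D against 39.7 FPKM at 5D. SEN1 and TPS11 were the other lower members. The energy-sensing kinase KIN10 (0.11) and the glucose transporter STP1 (-0.10) did not pass. The count was 1 without the 4D 8H or the 4D 16H time point, 8 without 4D, 7 without 5D 8H and 2 with 5D 16H added.

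**Figure D4:**
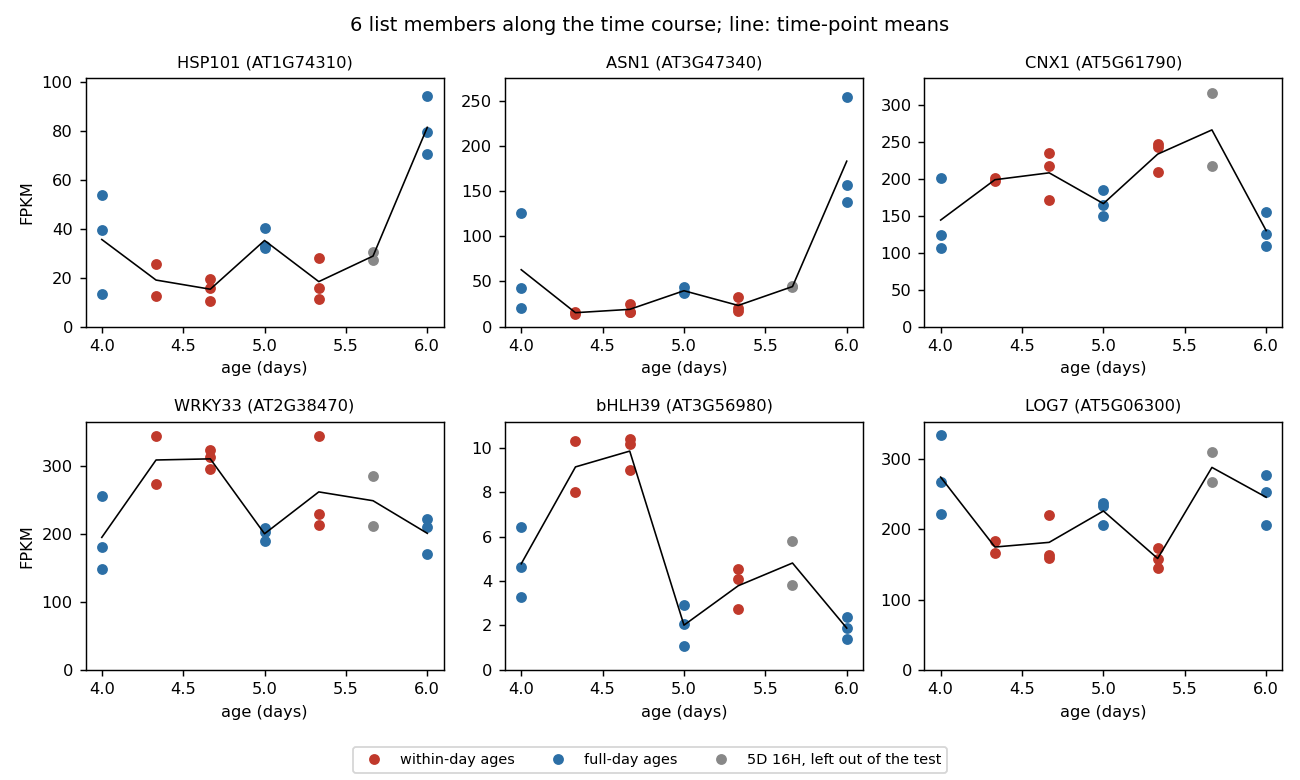
FPKM of HSP101, ASN1, CNX1, WRKY33, bHLH39 and LOG7 against age in days, with 1 point per library (red within-day, blue full-day, grey 5D 16H) and lines through time-point means. HSP101 and ASN1 are highest at 6D, CNX1 is highest at 5D 16H, and bHLH39 is highest at 4D 8H and 4D 16H.

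Touch and wound genes, transcribed soon after mechanical stress, were higher in 7 of 16 tested members and lower in 0, with a median difference of 0.415. The calmodulin-like TCH2 (AT5G37770) had 170, 190 and 212 FPKM in within-day libraries and 113, 137 and 168 FPKM in full-day libraries, a log2 difference of 0.42 ± 0.07 (SE; limma adjusted p = 0.00431). Its arms did not overlap. WRKY33 (AT2G38470), a defence factor, averaged 292 ± 50 FPKM in within-day libraries and 199 ± 31.4 FPKM in full-day libraries, and the zinc finger protein SZF1 (AT3G55980) 104 ± 18.3 FPKM and 73.7 ± 11.4 FPKM (SD, n = 8 and 9). STZ, CZF1, ERF5 and EXO were also higher, with differences between 0.43 and 0.57. The list's median was 0.101 at 5D 8H, 0.499 at 4D 8H and 0.613 at 4D 16H, each against the same full-day libraries. Without the 4D 16H time point 1 member passed, without 4D 8H 2, without 5D 4, and without 5D 8H 11, and 3 passed with 5D 16H added.

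Jasmonate response genes, most of them JAZ repressors that jasmonate both induces and destroys, were lower in 4 of 14 tested members and higher in 0, with a median difference of -0.286. JAZ12 (AT5G20900) averaged 77.2 ± 2.97 FPKM in within-day libraries and 91.0 ± 7.10 FPKM in full-day libraries (SD, n = 8 and 9), with no overlap. JAZ3 (AT3G17860) averaged 117 ± 15.3 FPKM in within-day libraries and 156 ± 21.5 FPKM in full-day libraries, and JAZ10 (AT5G13220) 167 ± 26.7 FPKM and 227 ± 39.2 FPKM. TIFY7 was the remaining lower member, while MYC2 (0.24) and the receptor COI1 (0.11) did not pass. The count was 7 under upper quartile scaling and without the 5D 8H time point, 2 without 4D 8H or 5D, and 1 without 4D 16H. Of the 11 tested jasmonate synthesis genes, the lipoxygenase LOX4 (AT1G72520) was higher by 0.50 and the acyl-CoA oxidase ACX1 (AT4G16760) was lower by a difference of -0.49, and 9 did not pass. LOX4 did not pass without 4D 8H or 4D 16H, and neither gene with 5D 16H added.

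Among regulators of the meristem and stem cells, 4 of 13 tested members were higher and WOX5 alone was lower. PLT1 (AT3G20840), a PLETHORA factor, had 4.75, 7.51 and 9.23 FPKM in within-day libraries and 3.01, 4.47 and 6.26 FPKM in full-day libraries, a log2 difference of 0.57 ± 0.13 (SE; limma adjusted p = 0.0128). UPB1 (AT2G47270), a bHLH factor that limits meristem size through peroxidases, averaged 145 ± 11.3 FPKM in within-day libraries and 119 ± 12.3 FPKM in full-day libraries (SD, n = 8 and 9). SHR, the mobile ground tissue factor, and MGP, its target, were higher by 0.62 and 0.57. WOX5 thus differed in direction from every other called member. The summed FPKM of the list was 208 to 246 in within-day libraries and 182 to 213 in full-day libraries, and UPB1 with its means of 145 and 119 FPKM made up most of it. AGL42, another quiescent centre gene, averaged 2.47 FPKM in within-day libraries and 3.95 FPKM in full-day libraries (limma adjusted p = 0.473). TCX2 (AT4G14770), the division regulator the study centres on, averaged 2.73 ± 0.607 FPKM and 2.24 ± 0.512 FPKM, and its difference of 0.20 ± 0.11 (SE) did not pass (limma adjusted p = 0.199). The number of higher members was 0 without the 4D 8H time point and 1 without 4D 16H, and no member of the list passed with 5D 16H added.

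Of 12 tested cytokinin genes, 4 were higher and 2 lower. Type-A response regulators, which damp cytokinin signalling, were higher where they passed, namely ARR4, ARR6, RR3 and ARR9, with differences between 0.37 and 0.41. LONELY GUY enzymes, which release active cytokinin, were lower where they passed. LOG7 (AT5G06300) had 145, 166 and 221 FPKM in within-day libraries and 206, 238 and 334 FPKM in full-day libraries, a log2 difference of -0.53 ± 0.10 (SE; limma adjusted p = 0.00476). LOG1 (AT2G28305) averaged 4.07 ± 1.15 FPKM in within-day libraries and 7.5 ± 2.19 FPKM in full-day libraries (SD, n = 8 and 9). The other 6 members did not pass, among them ARR7 (-0.03), LOG3 (0.13) and LOG4 (0.07). With 5D 16H added 0 members were higher and 1 lower, and without the 4D 16H time point 1 was higher and 2 lower. In the auxin list the repressors SHY2 (AT1G04240) and IAA28 (AT5G25890) were higher by 0.44 and 0.47, and 16 of 18 members did not pass, nor did any with 5D 16H added.

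Iron genes included 1 higher and 2 lower members of 15. The regulator bHLH39 (AT3G56980), which turns on iron uptake, averaged 7.41 ± 3.14 FPKM in within-day libraries and 2.89 ± 1.71 FPKM in full-day libraries (SD, n = 8 and 9; limma adjusted p = 0.0149). It lay at 8.00 FPKM or more in the 5 libraries of 4D 8H and 4D 16H and at 2.73 to 4.55 FPKM at 5D 8H, within the full-day range of 1.08 to 6.43 FPKM. BTS (AT3G18290), a ubiquitin ligase that restrains the iron response, had 26.1, 30.3 and 34.8 FPKM in within-day libraries and 31.2, 39.7 and 45.1 FPKM in full-day libraries, and the iron store FER1 (AT5G01600) averaged 147 ± 40.8 FPKM and 218 ± 36.7 FPKM. The median of the list was 0.033 and turned to -0.031 under upper quartile scaling and -0.006 under quantile normalization, as that of the auxin list did, so no direction is given for either list. No iron gene was higher without the 4D 8H, 4D 16H or 6D time point, and 4 were without 4D.

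Cell cycle genes passed in numbers that depended on the ages compared, as did the counts over all loci. Of 26 DNA replication genes, 3 were higher and 1 lower, beside 9.43% and 4.19% of all loci. Among the higher, FAS2, a histone chaperone subunit, passed narrowly (limma adjusted p = 0.0497), as did MCM2 (0.0483). ETG1 (AT2G40550) and MCM2 (AT1G44900), which act at replication origins, averaged 5.66 ± 0.861 and 5.90 ± 0.857 FPKM in within-day libraries and 4.13 ± 0.895 and 4.59 ± 0.953 FPKM in full-day libraries, and E2F1 (AT5G22220), a factor of S-phase entry, was lower by a difference of -0.38. Of 26 G2/M and cytokinesis genes only CDKB2;1 (AT1G76540), a mitotic kinase, passed, with a difference of 0.27, and the list's median of 0.097 turned to -0.024 under quantile normalization. Without the 6D time point 8 G2/M genes were higher, and the median was 0.202. Of 22 histone genes, 3 were higher (AT5G65360, HTB11 and HTB2), HTB2 narrowly (limma adjusted p = 0.0499). The medians of the replication and histone lists were 0.439 and 0.481 at 4D 16H but 0.048 and -0.064 at 5D 8H, so the lists stood farther from full-day ages at the first of these than at the second. Without 5D 8H 11 replication and 9 histone genes were higher and without 6D 8 and 5, but 0 of each without any other time point or with 5D 16H added. Under upper quartile scaling 1 and 0 were higher, and under quantile normalization 0 and 1. Nucleolar ribosome assembly genes followed the same order, with medians of 0.362, 0.567 and -0.027 at 4D 8H, 4D 16H and 5D 8H. Of the 23 tested, YAO (AT4G05410) and EDA25 (AT1G72440) were higher, and 18 were higher without 5D 8H and 4 without 6D, but 0 under either scaling, with 5D 16H added or without any other time point. Of 16 ribosomal protein genes, RPS13A (AT4G00100) was higher by 0.39 and SAG24 (AT1G66580) lower by a difference of -0.56, with paralogs that share reads making single values uncertain. Without 5D 8H 14 ribosomal protein genes were higher and without 6D 11, but 0 under either scaling, with 5D 16H added or without any other time point.

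Of 22 tested clock genes, 4 were higher and 1 lower. The RNA-binding clock outputs GRP7 and CCR1 (AT4G39260) were higher by 0.43 and 0.33, TCP11 (AT5G08330), a TCP factor, by 0.61 and the morning repressor PRR9 by 0.41, and ELF3 (AT2G25930), a part of the evening complex, was lower by a difference of -0.22. CCR1 averaged 166 ± 11.7 FPKM in within-day libraries and 133 ± 16.4 FPKM in full-day libraries (SD, n = 8 and 9). With 5D 16H added or without the 4D 8H time point 1 clock gene was higher and 0 lower, without 4D 16H 2 and 0, and under upper quartile scaling 2 and 2. The clock genes CCA1, LHY, TOC1 and GI did not pass. CCA1 averaged 4.12 FPKM in within-day libraries and 3.64 FPKM in full-day libraries (limma adjusted p = 0.328), LHY 3.17 and 2.35 FPKM (0.0691), TOC1 26.7 and 25.5 FPKM (0.454) and GI 22.4 and 18.9 FPKM (0.0971).

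Marker lists of other cells the sort could hold were measured beside these groups. Their tested members included 2 of 10 root cap genes that were higher, 0 of 10 root hair genes, 1 of 10 endodermal barrier genes and 2 of 12 xylem and phloem genes, and no member was lower. PIN3 (AT1G70940), an auxin carrier of the columella, averaged 45.8 ± 10.2 FPKM in within-day libraries and 25.6 ± 5.48 FPKM in full-day libraries, and the root cap cellulase CEL5 (AT1G22880) 133 ± 19.6 and 97.0 ± 27.4 FPKM (SD, n = 8 and 9). LHW (AT2G27230), a vascular bHLH factor, averaged 11.4 ± 0.761 FPKM in within-day libraries and 8.30 ± 1.23 FPKM in full-day libraries, with no overlap. MYB36 (AT5G57620), which switches on the endodermal barrier, was higher by 0.45 and CVP2 (AT1G05470), a phloem phosphatase, by 0.26. PRP1 (AT1G54970), the root hair gene with the smallest p, averaged 160 ± 61.4 FPKM in within-day libraries and 102 ± 55.1 FPKM in full-day libraries and did not pass (limma adjusted p = 0.0952). The summed FPKM overlapped between the arms in each list, at 1120 to 1590 and 863 to 1540 for the root cap, 766 to 1730 and 527 to 1580 for root hairs and 1460 to 2880 and 1040 to 3180 for the endodermal barrier, in within-day and full-day libraries in that order. For xylem and phloem every within-day sum lay inside the full-day range of 159 to 494. Counts of higher members ran from 1 to 4 for the root cap, 0 to 3 for root hairs, 0 to 1 for the endodermal barrier and 0 to 3 for xylem and phloem over the scalings, the time points left out and 5D 16H added. No marker was at 0 in all libraries, and the part of these cells in the other differences was not tested.

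Of 14 tested light-related genes, ELIP1 (AT3G22840) and ELIP2 (AT4G14690), chlorophyll-binding proteins induced by strong light, were higher and 12 did not pass. ELIP1 had 50.9, 82.9 and 102 FPKM in within-day libraries and 11.3, 42.2 and 78.1 FPKM in full-day libraries, a log2 difference of 1.19 ± 0.32 (SE; limma adjusted p = 0.0243). The arms overlapped through 4D, and the lowest values were those of 6D. The summed FPKM of the list was 364 to 670 in within-day libraries and 210 to 477 in full-day libraries. Of 6 nitrate and ammonium genes, AMT1;1 (AT4G13510), an ammonium transporter, was higher by 0.22, but not under any of the other scalings or choices of time points. Of the light list 0 members passed without 4D 8H, 4D 16H or 6D, or with 5D 16H added.

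To ask which age carried the difference, each within-day time point was set against the mean of the 3 full-day time points, with 1 mean per time point. At 4D 8H 1415 loci were called (7.82%), 1057 higher (5.84%) and 358 lower (1.98%). At 4D 16H there were 3656 (20.2%), 2669 higher (14.8%) and 987 lower (5.46%). At 5D 8H there were 912 (5.04%), 663 higher (3.67%) and 249 lower (1.38%). Under quantile normalization the splits were 823 and 575, 1784 and 1764, and 445 and 381 higher and lower loci at the 3 ages. The counts changed much when single libraries were left out. Leaving out either 4D 8H library left 1 there, assumed to vary like the other groups. At 4D 8H 32 or 14 loci were called without its replicate 1 or 2, at 4D 16H 1177 or 1982 without its replicate 1 or 2, and at 5D 8H 3 or 4 without its replicate 1 or 3. The count at 5D 8H was also 1688 without 4D replicate 1, 1500 without 4D 16H replicate 3, 606 without 6D replicate 3, 584 without 4D replicate 3 and 429 without 5D replicate 1. Since the 3 comparisons share all full-day libraries and differ in the number of within-day libraries, their counts are set side by side only. For WOX5 (AT3G11260) the differences were -0.84 at 4D 8H, -1.32 at 4D 16H and -1.01 at 5D 8H, and for AT5G53050 they were -0.55, -0.58 and -0.50. AT5G53050 passed at all 3 ages, and WOX5 at 4D 16H and 5D 8H but not at 4D 8H (limma adjusted p = 0.0693). For bHLH39 (AT3G56980) they were 1.48, 1.59 and 0.39. Heat shock medians were -0.655, -1.091 and -0.915 at the 3 ages, and endoplasmic reticulum folding medians 0.209, 0.284 and 0.399. Sugar starvation medians were -0.634, -0.555 and -0.140. The folding list thus stood farthest from full-day ages at 5D 8H and the starvation list nearest. The step of 8 h from 5D differed from that from 4D at 1 locus of all (0.00553%), which was none of the named loci.

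The 5D 16H libraries entered the filter on mean FPKM but not the fit of 8 against 9 libraries. In 5D 16H replicate 1, at an estimated 13200000 reads, within the depth range of the other libraries, 31.8% of the 1705 higher loci and 38.2% of the 757 lower loci lay on the within-day side of the midpoint between the arms. Over all tested loci the shares were 42.9% for positive and 44.9% for negative differences. In replicate 2, at an estimated 1220000 reads, the shares were 27.0% and 34.9% for called loci and 38.3% and 48.5% for all. The called loci thus lay on the full-day side in most cases in both libraries, although 5D 16H is itself an age within a day. Of the 75 higher and 40 lower loci without overlap, 19 and 15 lay beyond the full-day range on the within-day side in replicate 1, and 19 and 9 in replicate 2. AT1G28400 was among them, with 15.7 and 18.3 FPKM.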

How the data were processed

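The authors mapped single-end reads of 100 bases and deposited FPKM, for which the study names Bowtie, the Tuxedo tools and Rsubread, and the submitters' processing notes name TopHat, Cufflinks and the build TAIR10, with versions not given in the sources used here. The labels name a stranded mRNA kit, whereas the methods refer to another library preparation. Of 33201 loci, 6516 had no FPKM above 0 in any library. Symbols and coordinates came from RefSeq's TAIR10.1 annotation, which matched 32489 loci. Groups came from sample titles. Differences in log2(FPKM + 1) were tested with limma 3.58.1, run under R 4.3.3, with variances following a trend on mean expression and Benjamini-Hochberg adjustment over 18087 loci, so differences of low genes are understated. The fit was also checked on simulated FPKM with known differences. Simulated libraries varied independently around 1 mean per locus, with no differences between time points of an arm. The check therefore cannot show how often such differences give false calls. FPKM hold no counts, and depth was estimated from steps between low values. Since only 32.3% to 51.1% of these lay within 0.05 of whole reads, no count test was run. Evenly spread values would give 10%, but 1 read was defined from the same values, so the excess does not check the depth. Named loci were the 8 largest differences in each direction among called loci of at least 300 nt and 5 FPKM whose arms did not overlap, up to 3 members of each list past the threshold by smallest p (otherwise the member with the smallest p), WOX5 and TCX2. Of 375 list members, 349 matched a symbol or locus name of the annotation, and sugar starvation bZIP factors at 3 loci were not used here. Members and lists were chosen with earlier results of these data known. Alternatives covered the pseudocount, filter, scaling, replicate block, variance trend, age, time point, weights, exact zeros, 5D 16H and each library left out. List counts under other scalings, and named loci and lists with a time point left out, were alternatives chosen after seeing the data.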

Additional observations from a re-analysis of the deposited data

Results flagged for a closer look

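Among 67 named loci, the 8 within-day and the 9 full-day libraries were each examined for 1 library far from the others in the group. Such a library was found in 6 of 134 groups, where chance gives about 1 in 20. In within-day libraries PIN3 (AT1G70940) had 23.6 FPKM in 4D 16H replicate 3, against 42.4 to 56.5 FPKM in the others, so that it overlapped the full-day arm through this library alone. In the same library TCX2 (AT4G14770) had 3.98 FPKM, against 2.17 to 2.98 FPKM in the others. AT3G59710 had 62.5 FPKM in 4D 8H replicate 2, against 76.7 to 88.1 FPKM. In full-day libraries the histone gene AT5G65360 had 105 FPKM in 6D replicate 1, against 50.4 to 74.2 FPKM in the others. LOG1 (AT2G28305) had 13 FPKM in 4D replicate 2, against 5.52 to 8.40 FPKM, and ELIP2 (AT4G14690) had 18.9 FPKM in 4D replicate 1, against 3.3 to 11.1 FPKM.

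In the 5D 16H libraries, which were left out of the comparison of 8 with 9 libraries, 15 of the 115 loci whose arms did not overlap lay beyond the full-day range on the within-day side in both libraries.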

How the results depend on the processing

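The 2462 calls between within-day and full-day ages became 8 with the time point as a random block, 0 with the 6 time-point means as units, 595 with 5D 16H added, 722 without the 4D 8H and 830 without the 4D 16H time point, 4579 with 1 mean per time point and 4109 with sample weights. The fit on 6 time-point means had fewer residual degrees of freedom, and the random-block fit used a correlation of 0.268 between libraries of a time point. Why the counts differed between fits was not tested. Leaving out 1 library gave 1380 (without 4D 16H replicate 2) to 3049 (without 4D replicate 1), with 1438 without 4D 8H replicate 1, 1437 without 4D 16H replicate 1, 1570 without 4D replicate 3 and 1634 without 6D replicate 3. The other settings gave 1925 to 3152 calls. For single ages, leaving out 1 library gave 14 to 1772 calls at 4D 8H, where 1 library then remained and was assumed to vary like the other groups, 1177 to 4183 at 4D 16H and 3 to 1688 at 5D 8H, and no filter gave 462 at 5D 8H. Replicate numbers showed no sign of pairing samples. Deviations of 40 same-numbered pairs correlated at a mean of 0.007 and a minimum of -0.219, against a mean of -0.003 in 80 other pairs. With 2 or 3 libraries per time point these values cannot exclude a pairing. With the replicate block 1925 loci were called between the arms and 920 at 4D 8H. Of 2072 values of the 67 named loci under settings that kept all time points, 334 lost and 2 gained the call and 0 changed direction, with 62 lost under the random block, 65 with time-point means as units and 37 with 5D 16H added. The depth, from 10500000 reads upward, limits loci near 1 FPKM, and values of 5D 16H replicate 2 (1220000 reads) are the least certain.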

Other observations

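Loci without overlap between the arms also included GAE1, GAUT11, BAM1 and CLE6, which like the others named here were singled out after their values were seen. GAE1 (AT4G30440), an epimerase that makes a pectin precursor, had a lowest, median and highest FPKM of 114, 135 and 169 in within-day libraries, against 71.6, 103 and 113 in full-day libraries. GAUT11 (AT1G18580), a galacturonosyltransferase of pectin synthesis, had 7.10, 8.49 and 9.59 FPKM in within-day libraries and 3.79, 6.27 and 6.88 FPKM in full-day libraries. BAM1 (AT5G65700), a CLAVATA-type receptor kinase, had 20.7, 23.1 and 27.2 FPKM in within-day libraries and 12.5, 17.3 and 19.7 FPKM in full-day libraries, and the peptide gene CLE6 (AT2G31085) 19.2, 24.4 and 35.2 FPKM and 9.29, 15.1 and 18.6 FPKM. All 4 were higher, with log2 differences of 0.45, 0.46, 0.44 and 0.73. At 5D 16H only GAE1 passed the highest full-day value, with 122 FPKM in replicate 1 (89.5 FPKM in replicate 2).

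Lower loci without overlap included TAG1 and TPPG. TAG1 (AT2G19450), an acyltransferase that makes storage oil, had 28.3, 38.1 and 47.1 FPKM in within-day libraries and 47.3, 55.0 and 69.1 FPKM in full-day libraries. TPPG (AT4G22590), a trehalose phosphatase, had 306, 347 and 390 FPKM in within-day libraries and 391, 435 and 548 FPKM in full-day libraries. For both genes the highest within-day and the lowest full-day library were nearly equal. TPS5 (AT4G17770), of the trehalose phosphate synthase family, and SMT2 (AT1G20330), a sterol methyltransferase, were higher without overlap, with log2 differences of 0.63 and 0.37.

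The difference between the steps of 0 to 8 h on the 2 days passed at 1 of 18087 loci, with 1268 at an unadjusted p under 0.05 in limma. AT5G41109 was listed at 0 in both 4D 8H libraries and at 33.9, 33.8 and 43.1 FPKM at 5D 8H, against 20.9, 19.4 and 32.5 FPKM at 4D and 10.1, 14.7 and 16.8 FPKM at 5D. An exact 0 in such a table can be a failed estimate, and this was not tested.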
